A study of Mus musculus with 6 samples.

Results

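The nuclear-encoded subunits of the mitochondrial respiratory chain and ATP synthase were followed in RNA-seq of mouse embryonic hearts. Members were taken by symbol: every gene named Nduf with a subunit letter and number, Sdha to Sdhd, Uqcr genes, Cyc1, Cox4 to Cox8 genes and Atp5 genes. The rule found 83 of the 15330 genes in the deposited table, of which 36 were placed in complex I, 4 in complex II, 9 in complex III, 17 in complex IV and 17 in complex V. Ndufa4, once counted in complex I, its paralogue Ndufa4l2 and the supercomplex assembly factor Cox7a2l were placed in complex IV.

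The samples were 3 libraries of hearts homozygous for the H2-URI deletion (H2-URI d/d) and 3 of wild-type hearts, all at embryonic day 9.5. The deletion was made with CRISPR-Cas9 and removes 373 kb of the regulatory interval upstream of Hand2, which encodes a transcription factor of the developing heart. It is a genomic deletion allele and is not limited to heart cells. By label, 2 libraries of each group are female and 1 is male, and the batch number is 1 throughout. The labels do not give the number of hearts per library, and p-values here speak of the spread among libraries only.

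The respiratory chain passes electrons from NADH, through complex I, or from succinate, through complex II, to ubiquinone, complex III and cytochrome c, and complex IV hands them to oxygen. Complexes I, III and IV pump protons across the inner mitochondrial membrane, and complex V, the ATP synthase, uses that gradient to make ATP. Each complex has core subunits that carry the catalytic centres, and in mammals the complexes other than complex II also have small accessory subunits around them. Some core subunits are encoded in mitochondrial DNA, while all subunits counted here are made from nuclear genes, translated in the cytosol and imported. The heart relies on this machinery more and more as it matures, and several cytochrome c oxidase subunits have a separate isoform for heart and skeletal muscle.

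The libraries held between 25583210 and 32043595 reads on genes. Hand2 checked the labels: it stood at 1025, 1158 and 1163 normalized counts in deletion replicates 1 to 3, against 3911, 3789 and 4407 in wild-type replicates 1 to 3. It was lower in all 3 deletion libraries (log2 fold change −1.85 ± 0.08 SE, limma adjusted p = 1.51e-05; exact two-sided permutation p = 0.1, the smallest that 3 against 3 libraries can give). For 4 samples the recorded file names a column of the other group; columns were assigned by the code in the sample titles. The 8 cardiomyocyte markers were all measured, and 0 of 8 passed the test. They summed to 860708 to 937733 normalized counts in deletion libraries and 812315 to 914161 in wild-type libraries. The sum joins markers that moved in opposite directions. Myh6, Myh7 and Ttn were higher in every deletion library than in every wild-type library (log2 fold changes 0.29, 0.18 and 0.40). Actc1 and Nkx2-5 had 0.02 and 0.07, and Tnnt2, Myl7 and Myl2 had −0.12, −0.22 and −0.11. Of 3 skeletal muscle markers 0 were in the table. No transcript of mitochondrial DNA was in the table, so the mitochondrially encoded subunits were not analysed here.

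Wild-type replicate 2 stood apart from the other wild-type libraries in these genes, so counts are given with and without it. For each gene the deviation of a library from the mean of all 6 was taken on the log2(normalized count + 1) scale. The median deviation over the 83 genes was −0.11, −0.13 and −0.17 in deletion replicates 1 to 3. In wild-type libraries it was 0.33 in replicate 1, −0.10 in replicate 2 and 0.22 in replicate 3. Replicate 2 of the wild type lay at the level of the deletion libraries, while replicates 1 and 3 lay above it. The subunit genes took 1.73%, 1.72% and 1.64% of all normalized counts in the deletion libraries, against 2.16%, 1.69% and 2.01% in wild-type replicates 1, 2 and 3.

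**Figure D1:**
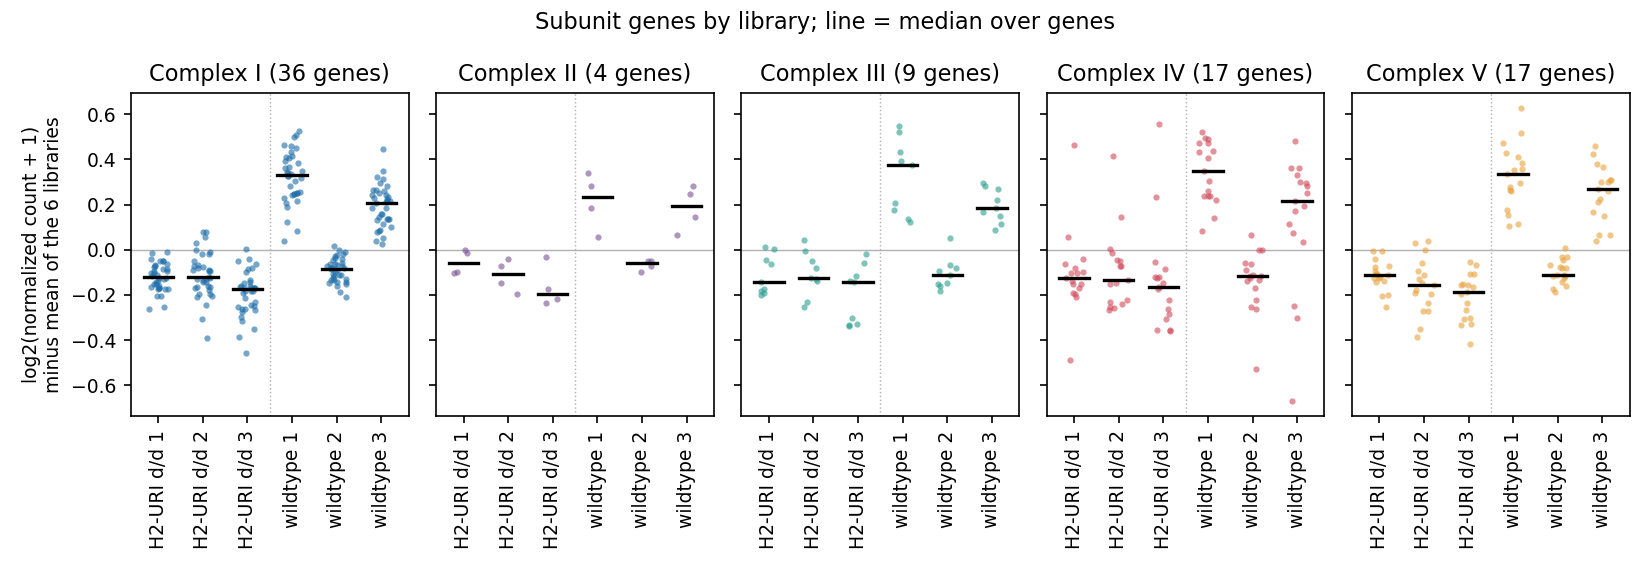
Deviation of each subunit gene from its mean over the 6 libraries, in log2(normalized count + 1), by complex; each point is a gene, columns are libraries with the H2-URI d/d libraries left of the wild-type ones, and black lines are medians over genes. In all 5 complexes wild-type replicates 1 and 3 lie above 0 at the median, and wild-type replicate 2 lies below 0 with the 3 deletion libraries.

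Across the chain most transcripts were lower in deletion hearts by a small amount, and few passed the test. Of the 83 genes 5 fell and 0 rose (limma, adjusted p under 0.05), where 1.5% of all 15330 genes tested were called lower and 1.55% higher. The 5 were Uqcrb of complex III, Ndufb1 and Ndufa3 of complex I, and Atp5md and Atp5k of complex V, with log2 fold changes between −0.63 and −0.45. The log2 fold change was below 0 for 81 of 83 genes, where 51.6% of all genes were below 0, and the median over the 83 was −0.29, against −0.01 over all genes. At an unadjusted p under 0.05, limma had 49 subunit genes lower and 1 higher, where 11.2% and 10.2% of all genes were. On reads recovered from the table, edgeR called 5 lower and 0 higher (1.51% and 1.75% of all genes), and DESeq2 called 36 lower and 0 higher (3.91% and 3.52% of all genes). The genes share libraries and are not independent of each other.

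The count rested on single libraries. Without wild-type replicate 2, 54 of the 83 genes were called lower and 0 higher (limma; 4.53% and 3.04% of all genes), and the median log2 fold change was −0.42. Calls rose in similar gene groups too. Of 844 other genes with a protein-coding transcript under 1000 bases, 210 were then called lower, against 39 with all libraries. Of 78 mitochondrial ribosome genes 20 were, against 4, and of 184 genes matched by a symbol rule for cytosolic ribosomal proteins 49, against 4. Replicate 2 was singled out by the level of the 83 subunit genes, so its removal adds no independent support. Without wild-type replicate 3 limma called 0 subunit genes lower and 0 higher, where 0.522% and 0.574% of all genes were called. Without deletion replicates 1, 2 and 3 in turn it again called 0 and 0, where 0.541%, 0.398% and 0.626% of all genes were called lower and 0.359%, 0.274% and 0.45% higher. Calls over all genes were thus fewer in these 4 fits too. Without wild-type replicate 1 limma called 3 lower and 1 higher (1.84% and 2.18% of all genes). In 33 genes the 3 deletion libraries lay below all 3 wild-type libraries, where 14.5% of all genes did so, and in 1 gene, Ndufa4l2, they lay above all 3 (12.9% of all genes). Wild-type replicates 1 and 3 both exceeded every deletion library in 78 of 83 genes, where 22.7% of all genes showed this. Wild-type replicate 2 lay at or below the highest deletion library in 50 of 83 genes, where 68.6% of all genes showed that. Both held together in 45 of the 83, against 8.14% of all genes. Among 844 other genes with a protein-coding transcript under 1000 bases, wild-type replicates 1 and 3 exceeded every deletion library in 501. Both held together in 214 of these 844.

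**Figure D2:**
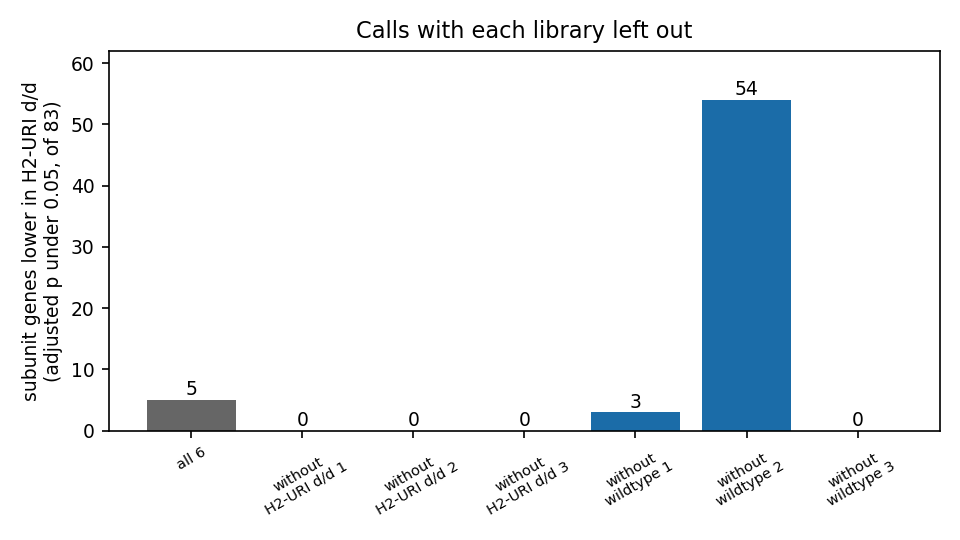
Number of the 83 subunit genes called lower in H2-URI d/d hearts (limma, adjusted p under 0.05) with all 6 libraries and with each library left out in turn. The count is 5 with all libraries, 54 without wild-type replicate 2 and 0 to 3 without any other library.

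Complex I, the NADH dehydrogenase, is the largest complex of the chain. Of its 36 genes 2 fell, the accessory subunit genes Ndufb1 and Ndufa3, and 0 rose (limma; 24 lower without wild-type replicate 2). All 36 log2 fold changes were below 0, with a median of −0.29. Ndufb1 encodes a small subunit of the membrane arm and stood at 1838, 1677 and 1514 normalized counts in deletion replicates 1 to 3, against 2938, 2063 and 2832 in wild-type replicates 1 to 3. The groups did not overlap, and wild-type replicate 2 lay nearest to the deletion libraries. Its mean was 1676 ± 162 in deletion hearts and 2611 ± 477 in wild-type hearts (SD, n = 3 each), a log2 fold change of −0.63 ± 0.13 SE (limma adjusted p = 0.0352). Ndufa3, another small accessory subunit gene, had 1972, 2006 and 1847 normalized counts in deletion libraries and 3009, 2240 and 2784 in wild-type libraries. Again no library of 1 group reached the other, and the lowest wild-type value was that of replicate 2. The means were 1941 ± 83.6 and 2678 ± 395 normalized counts in deletion and wild-type hearts (SD, n = 3 each), with a log2 fold change of −0.45 ± 0.10 SE (limma adjusted p = 0.0474). Ndufa3 was called in 10 of 23 alternatives, the fewest of the 5 called genes, and Ndufb1 in 15. The call of Ndufa3 ended with equal medians, quantile normalization, no intensity trend, sex as covariate and each library but wild-type replicate 2 left out.

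The next complex I genes by p did not pass. Ndufa12 had a log2 fold change of −0.30 (limma adjusted p = 0.0610), and Ndufs4, an accessory subunit gene in which human mutations cause Leigh syndrome, had −0.35 (0.0624). Ndufs8, which encodes an iron-sulphur core subunit, had −0.34 (limma adjusted p = 0.0632). Ndufs8 stood at 2170, 2065 and 2115 normalized counts in deletion libraries, against 2813, 2340 and 2891 in wild-type libraries, without overlap. For Ndufb4, Ndufc1, Ndufa5 and Ndufb5 the log2 fold changes lay between −0.49 and −0.31 with limma adjusted p between 0.0709 and 0.0805. All 7 of these genes passed in limma without wild-type replicate 2, and 0 of them passed without any 1 of the other 5 libraries.

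The 29 accessory genes of complex I had a median log2 fold change of −0.30 with 2 calls. The 7 core genes had −0.18 with 0 calls in limma or edgeR, 2 in DESeq2 and 2 lower at an unadjusted p under 0.05; the difference between the classes was not tested. Among the core genes Ndufv2, an iron-sulphur subunit of the NADH-oxidising arm, had the lowest value, −0.37 (limma adjusted p = 0.0865), with 4706, 3785 and 4697 normalized counts in deletion libraries against 5760, 5024 and 6199 in wild-type libraries. Its partner Ndufv1, the flavoprotein that oxidises NADH, had −0.07, and its groups overlapped, with 3945, 4162 and 3854 normalized counts in deletion libraries against 4710, 3735 and 4160 in wild-type libraries. Ndufs1, the large iron-sulphur subunit of the same arm, had −0.09. Among the 35 complex I genes with a length, all but Ndufb1, Ndufc1 had the highest level per kb of transcript, at 5665 normalized counts per kb in deletion hearts and 7768 in wild-type hearts. Ndufb8 was the lowest, at 251 and 298 normalized counts per kb in deletion and wild-type hearts.

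Complex II, succinate dehydrogenase, links the chain to the tricarboxylic acid cycle and has no mitochondrially encoded subunit. Of its 4 genes 0 passed in limma or edgeR, 2 were lower at an unadjusted p under 0.05, and DESeq2 called those 2, Sdhb and Sdhc, lower. Sdhb, the iron-sulphur subunit gene, had 4704, 4400 and 4331 normalized counts in deletion libraries, against 6127, 4873 and 6132 in wild-type libraries (log2 fold change −0.34 ± 0.09 SE, limma adjusted p = 0.0779). Sdhc, which encodes a membrane anchor, had 4797, 4660 and 4384 normalized counts in deletion libraries against 6524, 4814 and 6123 in wild-type libraries (−0.32 ± 0.11 SE, limma adjusted p = 0.118). In neither gene did the groups overlap, although wild-type replicate 2 exceeded the highest deletion library by little in both. The other anchor gene, Sdhd, had −0.17, and Sdha, the flavoprotein that oxidises succinate, −0.05. Sdha stood at 10941, 10628 and 10701 normalized counts in deletion libraries and at 11359, 10574 and 11448 in wild-type libraries, with overlap. The median over the 4 genes was −0.25, and −0.35 without wild-type replicate 2, when limma called 2.

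Complex III, the cytochrome bc1 complex, passes electrons from ubiquinol to cytochrome c. Of its 9 genes 1 fell and 0 rose (limma; 5 lower without wild-type replicate 2), and all 9 log2 fold changes were below 0. Uqcrb, which encodes a small subunit near the ubiquinone site, had the smallest p of all 83 genes. It stood at 6084, 5636 and 5310 normalized counts in deletion libraries, against 8825, 6960 and 8236 in wild-type libraries. The lowest wild-type library, replicate 2, exceeded the highest deletion library. The means were 5677 ± 388 in deletion hearts and 8007 ± 953 in wild-type hearts (SD, n = 3 each), a log2 fold change of −0.49 ± 0.09 SE (limma adjusted p = 0.0261). Of the 75-base windows of its transcript 29.1% also occur in transcripts of other genes, so its count is less certain than that of a unique transcript.

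Uqcr10, another small subunit gene of complex III, had the same log2 fold change, −0.49, without passing (limma adjusted p = 0.0803). It stood at 4774, 4595 and 4280 normalized counts in deletion libraries, against 7869, 5054 and 6561 in wild-type libraries. The groups did not overlap, but the wild-type libraries were far apart. Uqcrh, the hinge protein gene, had the highest level of complex III per kb of transcript, at 17182 and 22447 normalized counts per kb in deletion and wild-type hearts, with a log2 fold change of −0.38. Values of the 4 core genes were nearer to 0: −0.19 for Uqcrc2, −0.12 for Uqcrfs1, the Rieske iron-sulphur protein, −0.09 for Cyc1, cytochrome c1, and −0.09 for Uqcrc1. The median of the 5 accessory genes was −0.38, with 1 call. That of the core genes was −0.10, with 0 calls in limma, edgeR and DESeq2 and 1 lower at an unadjusted p under 0.05.

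Complex IV, cytochrome c oxidase, reduces oxygen, and its catalytic core is made in the mitochondrion, so all its nuclear genes are accessory or paralogues. Of 17 genes 0 passed in limma or edgeR, 9 were lower and 1 higher at an unadjusted p under 0.05, and DESeq2 called 7 lower and 0 higher. Without wild-type replicate 2 limma called 10 lower. The median log2 fold change was −0.26. Cox6c, the complex IV gene with the smallest p, had 6443, 6440 and 5600 normalized counts in deletion libraries against 9936, 6870 and 8516 in wild-type libraries (−0.44 ± 0.12 SE, limma adjusted p = 0.0816). Cox7c had −0.43 (0.0857) and Ndufa4 −0.42 (0.0879). In all 3 genes the groups did not overlap, with wild-type replicate 2 nearest to the deletion libraries. The Cox7c value carries a doubt from sequence, since 50.4% of its 75-base windows occur in other transcripts.

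Several complex IV subunits exist as a widely expressed and a muscle or oxygen-dependent form, and the pairs were compared gene by gene. Cox7a1, the heart and muscle form, had 965, 943 and 864 normalized counts in deletion libraries against 1532, 982 and 1546 in wild-type libraries. Its log2 fold change was −0.52 (limma adjusted p = 0.0996), and wild-type replicate 2 lay just above the deletion libraries. The widespread form Cox7a2 had −0.47 (0.0979), and Cox7a2l, which joins complexes III and IV into supercomplexes, −0.21 (0.127). Cox6a2, the muscle form, had −0.23 and the widespread Cox6a1 −0.20, both with overlap. Cox4i1 had −0.26 and its oxygen-regulated form Cox4i2 −0.01. Cox6b1 had −0.40 (limma adjusted p = 0.108), and Cox6b2, known as the testis form, 0.01 with libraries far apart, at 193, 262 and 400 normalized counts in deletion hearts and 317, 284 and 220 in wild-type hearts. Cox8a had −0.19.

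The share of each minor form in its pair was taken per kb of transcript. Cox7a1 made up 19.7%, 18.6% and 19.6% of Cox7a1 and Cox7a2 in deletion libraries, against 19.3%, 19.1% and 21.3% in wild-type libraries, so the 2 forms stood in about the same ratio in every library. Cox6a2 made up 26.4%, 21.1% and 22.5% of its pair in deletion libraries and 20.1%, 23.6% and 27.8% in wild-type libraries. Cox4i2 made up 1.82%, 1.95% and 1.96% of its pair in deletion libraries, against 1.59%, 1.92% and 1.36% in wild-type libraries. These groups overlapped.

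Ndufa4l2 had the highest log2 fold change of the 83. It is a paralogue of Ndufa4 known as a target of hypoxia-inducible factor, and here was the member with the lowest level per kb. It had 87.6, 84.5 and 74.5 normalized counts in deletion libraries, against 67.0, 43.6 and 39.4 in wild-type libraries. Every deletion library lay above every wild-type library. The log2 fold change of Ndufa4l2, 0.74 ± 0.23 SE, did not pass with all 6 libraries (limma adjusted p = 0.106). Among the alternatives tried it passed in limma without wild-type replicate 1 (0.97, adjusted p = 0.0343) and in no other. Per kb, Ndufa4l2 made up 0.494%, 0.510% and 0.470% of Ndufa4 and Ndufa4l2 in deletion libraries and 0.257%, 0.241% and 0.168% in wild-type libraries. This share also did not overlap (exact two-sided permutation p = 0.1, 0.4 after Benjamini-Hochberg adjustment over 8 shares).

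Complex V makes ATP from the proton gradient, and its genes were grouped as the F1 head and central stalk, the rotating c ring, the peripheral stalk and small membrane subunits that hold synthase dimers together. Of 17 genes 2 fell and 0 rose (limma; 13 lower without wild-type replicate 2), and all 17 log2 fold changes were below 0. Both called genes, Atp5md and Atp5k, belong to the 5 small membrane subunits. That group had a median of −0.52, all 5 were lower at an unadjusted p under 0.05, and DESeq2 called all 5. Atp5md, which encodes the subunit called DAPIT, had 6106, 5383 and 5976 normalized counts in deletion libraries, against 9021, 7061 and 9672 in wild-type libraries. The groups were apart, with wild-type replicate 2 the lowest of its group. Means were 5822 ± 385 and 8585 ± 1359 in deletion and wild-type hearts (SD, n = 3 each), a log2 fold change of −0.55 ± 0.11 SE (limma adjusted p = 0.0321). Of its 75-base windows 36.0% occur in other transcripts.

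Atp5k, subunit e of the synthase, stood at 5230, 5236 and 4497 normalized counts in deletion libraries, against 8073, 5865 and 8045 in wild-type libraries. Here too replicate 2 was the wild-type library closest to the deletion hearts, and no values crossed. The means were 4988 ± 425 and 7328 ± 1267 in deletion and wild-type hearts (SD, n = 3 each), with a log2 fold change of −0.54 ± 0.12 SE (limma adjusted p = 0.0474). Atp5k was called in 11 of 23 alternatives, and its call also ended in each of the settings named for Ndufa3. Atp5md was called in 16 and Uqcrb in 14. No 75-base window of the Atp5k transcript occurs in transcripts of other genes. The third gene of the group, Atp5mpl, had −0.52 (limma adjusted p = 0.0651), subunit f, Atp5j2, had −0.45 (0.112), and subunit g, Atp5l, −0.38 (0.0866). Of the 75-base windows of Atp5l 63.4% occur in transcripts of other genes, so its count is less certain.

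**Figure D3:**
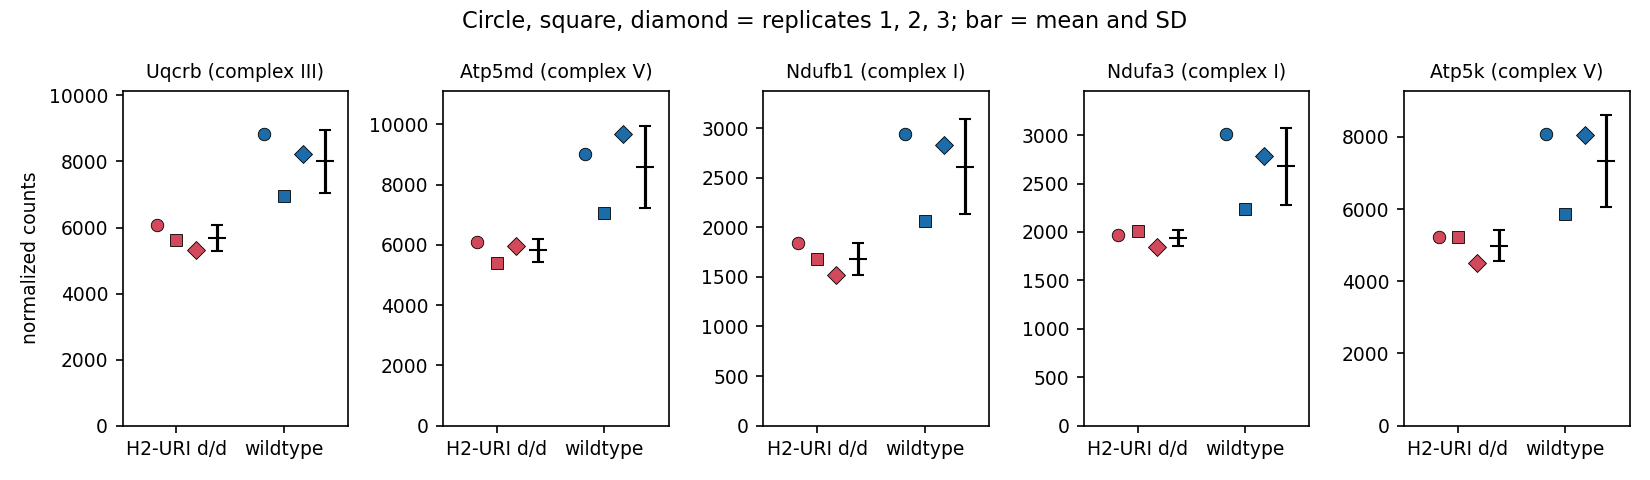
Normalized counts of the 5 subunit genes called lower in H2-URI d/d hearts, by library; circles, squares and diamonds are replicates 1, 2 and 3, with H2-URI d/d left of wild-type and bars for mean and SD (n = 3 each). In all 5 genes the wild-type square, replicate 2, is the lowest wild-type value and lies above every deletion library.

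In the catalytic head and central stalk the log2 fold changes lay between −0.50 and −0.03. Atp5b, the beta subunit that carries the catalytic sites, was the member with the highest level per kb, at 32071 and 32765 normalized counts per kb in deletion and wild-type hearts. Its counts were 61812, 63407 and 59123 in deletion libraries and 67186, 57486 and 63662 in wild-type libraries, which overlapped (log2 fold change −0.03 ± 0.10 SE, limma adjusted p = 0.894). Atp5a1, the alpha subunit, had −0.04, and Atp5d, the delta subunit of the central stalk, −0.14. Atp5c1, the gamma subunit that turns inside the head, had −0.19 (limma adjusted p = 0.183). It stood at 11525, 11106 and 10640 normalized counts in deletion libraries, against 13188, 11571 and 13306 in wild-type libraries, without overlap. Atp5e, the very short epsilon subunit, had −0.50 (limma adjusted p = 0.115), with 3142, 3279 and 3028 normalized counts in deletion libraries against 5783, 3322 and 4609 in wild-type libraries. The 5 head and central stalk genes had a median of −0.14, the 3 c ring genes −0.32 and the 4 peripheral stalk genes −0.28. In these groups limma and edgeR called 0, DESeq2 called 1, 2 and 1, and 2, 2 and 3 were lower at an unadjusted p under 0.05.

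The c ring is encoded by 3 genes whose mature proteins are the same, and their mix was compared per kb. Atp5g2 made up 21.6%, 22.7% and 22.5% of the 3 in deletion libraries and 21.6%, 20.8% and 19.99% in wild-type libraries. The lowest deletion library exceeded the highest wild-type library only in the second decimal (exact two-sided permutation p = 0.1, adjusted p = 0.4 over 8 shares). Since every 75-base window of Atp5g2 and 59.6% of those of Atp5g1 occur in other transcripts, these shares are uncertain. Atp5g3 made up 49.7% to 50.6% in deletion libraries and 49.0% to 51.2% in wild-type libraries.

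The medians were ordered by the size of the encoded protein. The 48 genes for proteins of up to 150 residues had a median log2 fold change of −0.35 and 4 calls. The 22 above that and up to 300 residues had −0.26, with 0 calls in limma or edgeR, 6 in DESeq2 and 12 lower at an unadjusted p under 0.05. The 12 above 300 residues had −0.09, with 0 calls by any of the 3 tools and 1 lower at an unadjusted p under 0.05. Ndufb1 has no annotated coding length in the reference used and is not among the 82. Over these 82 genes Spearman's rho between log2 fold change and residues was 0.65, given as a description, since all genes share the same 6 libraries. It was 0.70 without wild-type replicate 2, and 0.54 after each library was corrected for its dependence on transcript length and GC content. With that correction limma called 4 subunit genes lower and 0 higher (2.15% of 15032 genes lower and 1.46% higher), Uqcrb no longer among them, and the median was −0.20.

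**Figure D4:**
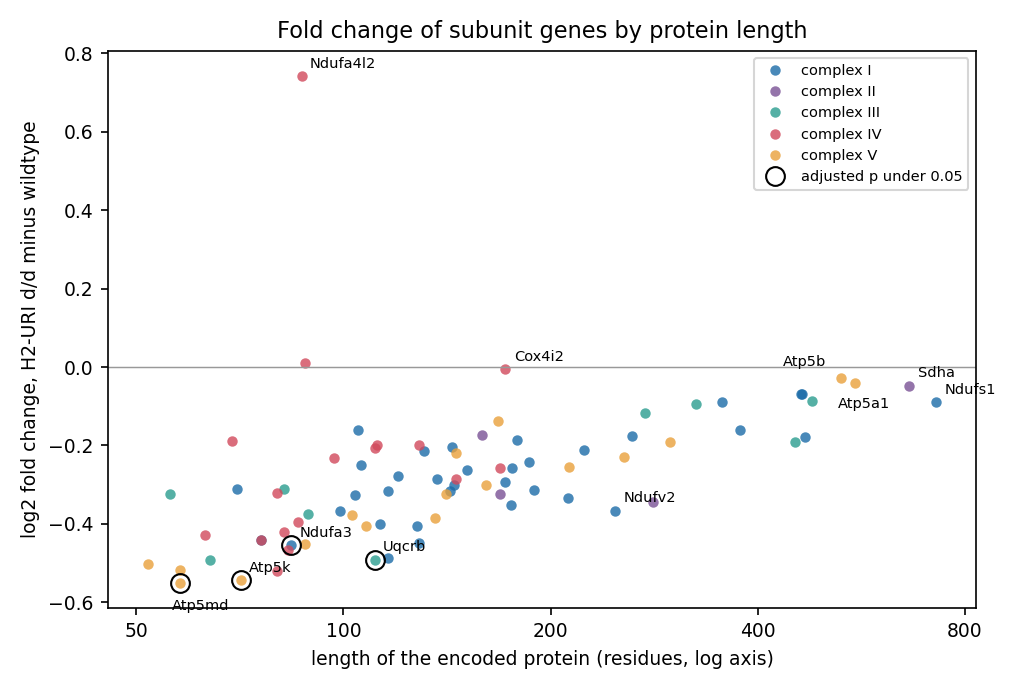
Log2 fold change (H2-URI d/d minus wild-type) of 82 subunit genes against the length of the encoded protein in residues on a log axis; colours are complexes and circles mark genes with an adjusted p under 0.05. Large subunits such as Atp5b, Sdha and Ndufs1 lie near 0, small ones mostly between −0.2 and −0.6, and Ndufa4l2 lies apart at 0.74.

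Other genes of short proteins and short transcripts also had medians below 0. The 820 other genes for proteins of up to 150 residues had a median log2 fold change of −0.19, with 38 called lower and 7 higher, while 9461 other genes for more than 300 residues had 0.02, with 126 lower and 195 higher. For 844 other genes with a protein-coding transcript under 1000 bases the median was −0.20, with 39 lower and 7 higher. By the longest annotated transcript, 65 of the subunit genes lay among the 3758 shortest genes. The median deviation of these 3758 genes was −0.05, −0.02 and −0.08 in deletion replicates 1 to 3, against 0.15, −0.03 and 0.05 in wild-type replicates 1 to 3, so the same wild-type libraries were high. The part of transcript length in the subunit result was examined only by the correction given above, which used the longest annotated transcript. With it the median of the 844 was −0.13, with 40 called lower. That of 78 mitochondrial ribosome genes was −0.16, with 2 lower. For 181 genes of the cytosolic ribosomal symbol rule it was −0.15, with 10 lower. The 83 subunit genes had −0.20, with 4 lower, where 2.15% of all genes were.

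Other mitochondrial gene lists had medians nearer to 0 than the subunit genes. Of 78 mitochondrial ribosome genes 4 fell and 0 rose, with a median log2 fold change of −0.21 and 77 values below 0. At an unadjusted p under 0.05 limma had 44 of the 78 lower, against 49 of the 83 subunit genes and 11.2% of all genes. In 40 of the 78 the deletion libraries lay below all wild-type libraries, against 33 of the 83 and 14.5% of all genes. Wild-type replicates 1 and 3 exceeded every deletion library in 59 of the 78, against 78 of the 83. The 3 with the smallest p were Mrpl1 (−0.42, limma adjusted p = 0.0316), Mrpl20 (−0.42, 0.0395) and Mrpl47 (−0.35, 0.0418). Of 184 genes matched by the symbol rule for cytosolic ribosomal proteins, 4 fell and 0 rose, with a median of −0.27. The rule also takes in pseudogenes, such as Rpl19-ps1 and Rps6-ps4, so this median is not that of ribosomal protein genes alone. It further takes in 9 Rps6k kinase genes, 1 of which, Rps6ka2, is the called gene with the smallest p (−0.58, limma adjusted p = 0.00157). The ribosomal genes Rpl22l1 (−0.54, 0.0156) and Rpl35 (−0.46, 0.0380) fell too.

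Assembly factors and matrix enzymes had few calls. Of 17 complex I assembly genes 0 passed in limma or edgeR while DESeq2 called 1 lower, and 4 were lower and 0 higher at an unadjusted p under 0.05. Ndufaf2 among them had −0.45 (limma adjusted p = 0.0512) and Dmac1 −0.28 (0.106). Of 34 measured assembly genes of complexes II to V, of 36 listed, 1 fell and 0 rose: Cox20, a chaperone for a mitochondrially encoded complex IV subunit, at −0.43 (limma adjusted p = 0.0317). Of 17 pyruvate dehydrogenase and tricarboxylic acid cycle genes 0 passed in limma or edgeR, DESeq2 called 1 lower and 5 were lower at an unadjusted p under 0.05, with a median of −0.09; the enzyme genes Fh1 and Pdhb had −0.30 (0.0816) and −0.21 (0.160). Of 12 genes for mitochondrial DNA upkeep and expression 1 fell and 0 rose, the elongation factor gene Tefm, at −0.42 (limma adjusted p = 0.0237). Of 17 carrier, import and membrane genes 1 fell and 0 rose, the matrix co-chaperone gene Hspe1, at −0.47 (limma adjusted p = 0.0317). Cycs, cytochrome c, had −0.33 (0.124).

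Genes that regulate the chain showed 0 calls of 13 in limma, edgeR and DESeq2, and 0 at an unadjusted p under 0.05. Their median log2 fold change was 0.02. The coactivator genes Ppargc1a, Ppargc1b and Pprc1 had 0.04, 0.19 and 0.02, and the nuclear respiratory factor genes Nrf1, Gabpa, Gabpb1 and Gabpb2 had −0.03, 0.00, 0.06 and 0.07. The receptor genes Esrra, Esrrb, Esrrg and Ppara had 0.10, −0.02, 0.00 and −0.22. Yy1 had 0.08, and Hif1a, the oxygen-sensing factor gene, −0.15. Ppargc1a, which encodes the best known coactivator of mitochondrial genes, stood at 1772, 1578 and 1741 normalized counts in deletion libraries and 1459, 1635 and 1865 in wild-type libraries, so that wild-type replicates 1 and 3 were its lowest and highest library.

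**Figure D5:**
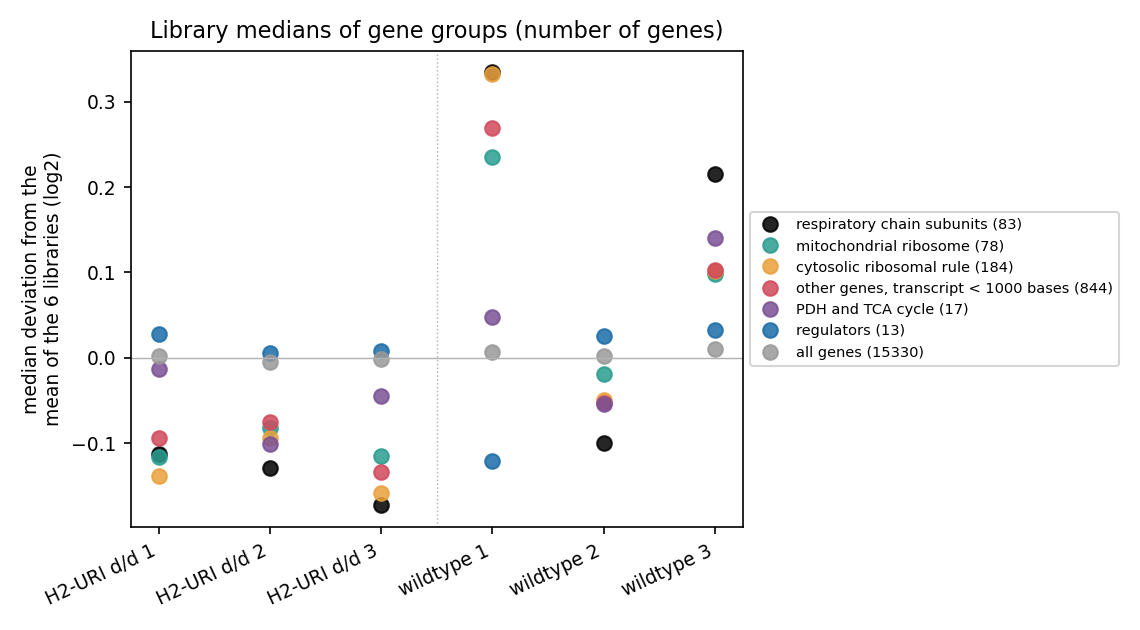
Median deviation from the mean of the 6 libraries, in log2(normalized count + 1), for gene groups with their number of genes, by library, H2-URI d/d left of wild-type. The subunit genes reach 0.33 and 0.22 in wild-type replicates 1 and 3 and lie at −0.10 or below in the other 4 libraries; ribosomal and other short genes are highest in wild-type replicate 1, and all genes lie near 0.

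Promoters of the called genes are shown as a description, and their part in the shared library pattern was not tested. They are RefSeq entries on GRCm38.p6, given as the 250 bases before the gene start on the gene's strand, 5′ to 3′, and capitals mark a match to a searched motif. Uqcrb had no entry, and the promoter of Atp5b, whose level differed little, is set beside them. The places are chr19:47090648-47090897 (minus strand) for Atp5md, chr12:101975739-101975988 (minus) for Ndufb1, chr7:3617123-3617372 (plus) for Ndufa3, chr5:108434400-108434649 (minus) for Atp5k and chr10:128083057-128083306 (plus) for Atp5b.
Atp5md: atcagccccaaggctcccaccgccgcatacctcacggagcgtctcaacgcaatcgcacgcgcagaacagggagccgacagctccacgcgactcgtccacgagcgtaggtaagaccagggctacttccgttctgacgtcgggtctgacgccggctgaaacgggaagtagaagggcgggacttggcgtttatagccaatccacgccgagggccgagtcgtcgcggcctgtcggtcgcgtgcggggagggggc
Ndufb1: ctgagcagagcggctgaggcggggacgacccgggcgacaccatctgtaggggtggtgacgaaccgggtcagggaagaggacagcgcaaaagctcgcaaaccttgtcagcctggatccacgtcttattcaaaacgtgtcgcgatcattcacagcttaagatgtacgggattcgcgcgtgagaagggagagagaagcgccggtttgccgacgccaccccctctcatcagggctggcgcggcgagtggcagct
Ndufa3: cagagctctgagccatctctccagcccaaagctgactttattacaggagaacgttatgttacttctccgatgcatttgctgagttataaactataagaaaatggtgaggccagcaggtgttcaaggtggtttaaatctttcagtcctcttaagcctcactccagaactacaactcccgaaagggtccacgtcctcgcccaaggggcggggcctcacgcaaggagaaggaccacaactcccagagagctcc
Atp5k: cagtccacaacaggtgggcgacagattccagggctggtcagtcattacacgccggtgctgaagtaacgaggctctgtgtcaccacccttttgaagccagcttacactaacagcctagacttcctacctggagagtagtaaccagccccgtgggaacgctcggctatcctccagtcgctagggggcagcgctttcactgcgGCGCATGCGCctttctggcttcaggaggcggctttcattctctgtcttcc
Atp5b: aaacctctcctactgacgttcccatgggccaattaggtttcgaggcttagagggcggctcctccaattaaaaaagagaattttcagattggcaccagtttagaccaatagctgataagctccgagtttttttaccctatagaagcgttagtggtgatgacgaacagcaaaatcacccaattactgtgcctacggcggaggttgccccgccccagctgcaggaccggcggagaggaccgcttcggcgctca

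The 3 motifs searched, with 8 letters each, were GCGCATGC for NRF1, CCGGAAGT for ETS factors and AAGATGGC for YY1. Both strands were read from 250 bases before to 50 after the start in the 67 of 83 genes with an entry. NRF1 was found in 10 of the 67 (14.9%, against 5.44% of 10529 measured genes with an entry), YY1 in 9 (13.4%, against 4.61%) and ETS in 5 (7.46%, against 8.22%). Of the 9 genes with the YY1 letters 8 held them after the start, 23 to 39 bases into the transcript, while 9 of the 10 genes with NRF1 letters held them before the start. Atp5k holds NRF1 letters on both strands at 1 place, 50 and 48 bases before the start, and the 2 matches overlap in the capitals above. Ndufa3 holds YY1 letters 23 bases into the transcript, shown in 30 bases of chr7:3617384-3617413 (plus strand).
Ndufa3: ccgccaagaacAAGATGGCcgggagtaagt

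Atp5md, Ndufb1 and Atp5b held none of the 3 in this window. A match describes letters and not a bound site.

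The signs of other cell types were set beside these results. Markers of cushion mesenchyme, cells that build the valves, summed to 2101 to 3169 normalized counts in deletion libraries and 4905 to 6208 in wild-type libraries, and 3 of 4 fell. Endocardium and endothelium markers summed to 15422 to 15760 in deletion libraries and 14863 to 16062 in wild-type libraries, and 2 of 5 passed. Kdr rose (log2 fold change 0.33, limma adjusted p = 0.0317) and Tek fell (−0.35, 0.0178). Summed levels of epicardial, foregut epithelial, liver and neural markers overlapped between the groups, with 0 called in each list. Primitive erythroid markers ranged from 84646 to 451078 in deletion libraries and from 119368 to 348471 in wild-type libraries, with 0 of 7 called. In deletion replicates 1 to 3 the erythroid sum was 84646, 214777 and 451078, and the median deviation of the subunit genes was −0.11, −0.13 and −0.17 in the same order. In wild-type replicates 1 to 3 it was 204989, 348471 and 119368, against median deviations of 0.33, −0.10 and 0.22. The replicate with the highest erythroid sum had the lowest subunit median in each group. Wild-type replicate 1 exceeded replicate 3 in both values. Deletion replicate 1 had the lowest erythroid sum of all libraries, with a subunit median of −0.11. With totals made equal without haemoglobin genes the median log2 fold change of the subunit genes was −0.25 and 5 were called lower. That setting only rescales each library as a whole, and the part of other cell types in the subunit result was not tested. In bulk RNA fewer cells of a type and less RNA per cell cannot be told apart.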

How the data were processed

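Per the labels' protocols, total RNA of micro-dissected hearts went into stranded poly(A) libraries read from both ends. Per the submitters' processing notes, the tools were STAR 2.7.9a, featureCounts of Subread 2.0.1, DESeq2 1.30.1 and bcl2fastq 2.20, on GRCm39; which annotation and gene filter were used was not given in the sources used. Per the file headers, the values are normalized counts, a signal per gene for which the authors divided read counts by a size factor per library. A table of 15330 genes was used; 5 further deposited files repeat 1 of its columns each. Columns follow the code in the titles, since 4 file records conflict with them.

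The test was limma 3.58.1 (R 4.3.3) with an intensity trend on log2(normalized count + 1), genes with a mean of at least 10 (no gene removed), two-sided, Benjamini-Hochberg adjusted over all genes, threshold 0.05. Fold changes are deletion minus wild-type on that scale, which understates the change of low genes. It was tested on simulated data. Lower values were whole multiples of 1 read for 100% of them within 0.01, so edgeR 4.0.16 and DESeq2 1.42.0 were run on recovered reads. High values were not checked in this way, and the size of 1 read was chosen by the same check. Lengths and shared 75-base windows come from GENCODE M21, which is on GRCm38 and not on the authors' build. Lengths were known for 98.1% of genes. The trend with length and GC content of the longest annotated transcript was removed per library, with splines of 4 degrees of freedom each. The replicate numbers did not pair the libraries. Genes named were those past the threshold, filled up to 16 by smallest p, at least 2 per complex, isoform pairs, the highest and lowest level per kb in each complex, and up to 3 per related list; further genes in the text were chosen after their values were seen. The members, gene lists and tests were chosen with earlier results of these data known. Members with no value of their own in the text enter its counts and medians.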

Additional observations from a re-analysis of the deposited data

How the results depend on the processing

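The main count was 5 subunit genes lower and 0 higher, with a median log2 fold change of −0.29. The count stayed at 5 with pseudocounts of 0.5 and 5, without a filter, with a mean of at least 100, with totals made equal without haemoglobin, with a robust prior variance and in edgeR. It was 3 with equal medians, 3 with quantile normalization, 2 with sex as covariate, 0 without the intensity trend, 0 in the 4 female libraries and 36 in DESeq2. With each library left out it ranged from 0 to 54 lower, and 1 gene, Ndufa4l2, was higher without wild-type replicate 1. The median ranged from −0.42 to −0.19 over these. With the replicate block 4 were lower, and 5 with block and trend removal together; same-numbered libraries correlated at −0.03, −0.12 and −0.14, so the numbers did not pair them.

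With files as recorded, which moves 4 libraries to the other group, 0 were lower and values turned positive: the median to 0.016, those of complexes I, IV and V to 0.029, 0.033 and 0.017, the median log2 fold change of complex III to 0.0064, Uqcrb to 0.069, Atp5md to 0.087, Ndufb1 to 0.024, Ndufa3 to 0.059, Cox20 to 0.074, Tefm to 0.13, Mrpl1 to 0.11, Mrpl20 to 0.11, Mrpl47 to 0.058, Hspe1 to 0.12, Rps6ka2 to 0.15, Rpl22l1 to 0.16, Rpl35 to 0.20 and Hand2 to 0.57. The cause of the other shifts was not tested. The lowest mean of a member was 66.1 normalized counts, for Ndufa4l2. The SE of the log2 fold change was widest for Cox6b2 (0.24) and Ndufa4l2 (0.23), both low, and smallest for Sdha (0.063).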
